A study of Mus musculus with 8 samples.

Results

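The genes described here are those that mark the fibroblasts of the meninges, the membranes around the brain, and the matrix that these cells lay down. They were chosen by name, as a fixed list of 34 genes, and every probe set annotated to exactly 1 of them was taken. The list was drawn up with earlier results of these data known. Shares of all probe sets given below are therefore a background and no independent test of the list. All 34 genes were on the array, with 62 probe sets of 45037, and no probe set named 1 of them together with another gene. Hippocampal RNA was measured on 8 Affymetrix mouse arrays. The RA group comprised 4 arrays (RA 1 to RA 4) from male 3xTg-AD mice that were 10 months old and had been fed a purified rodent diet with 0.5% rosmarinic acid (RA), a plant polyphenol, for 8 months. The control group comprised 4 arrays (control 1 to control 4) from male 3xTg-AD mice of the same age on the same diet without RA. Mice of both groups carried the same transgenes for mutant human amyloid precursor protein, tau and presenilin 1, and no mice without them entered the comparison. The methods speak of 4 mice per group and also of pooled RNA, so it is not settled that each array is 1 mouse, and p-values measure only the spread between these arrays.

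Meningeal fibroblasts line the pia and the arachnoid and enter the brain along larger vessels. They secrete fibrillar collagens, small leucine-rich proteoglycans and other matrix proteins, carry transporters that move amino acids, organic ions and sulfate between the cerebrospinal fluid and the blood, and send bone morphogenetic protein (BMP) and other signals to the brain below. The hippocampus is bordered by pia on its surface and in its fissure, and dissected hippocampi can hold more or less of it. In bulk RNA, more of these cells and more RNA per cell cannot be told apart.

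Values were log2 summaries of the probes of a probe set, made with the FARMS method, which returns nearly the same value on every array where the probes do not vary together. A probe set was taken as unmeasured where its SD over the 8 arrays was up to 0.01. Of the 62 probe sets, 42 (67.7%) were measured, against 3758 (8.34%) of all 45037. Through them 29 of the 34 genes were measured. For each gene, the measured probe set with the highest mean stands for the gene below. The 8 arrays had medians between 5.83 and 5.84 and correlated with each other between 0.989 and 0.998.

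The measured genes moved together over the arrays, and the array that they set apart was RA 2. Of the 29 genes, 26 were highest in RA 2, whereas 27.2% of all measured probe sets were. The other 3 were Dcn and Col6a1, highest in control 1, and Lum, highest in RA 4. The mean deviation of the 29 genes from their own means over the arrays was -0.18 in RA 1, 0.63 in RA 2, 0.04 in RA 3 and 0.03 in RA 4, against 0.08 in control 1, -0.24 in control 2, -0.26 in control 3 and -0.10 in control 4. The number of genes above their own mean was 2 in RA 1, 29 in RA 2, 18 in RA 3 and 14 in RA 4. In the control group it was 17 in control 1, 1 in control 2, 4 in control 3 and 6 in control 4. The median gene was 0.76 higher on the log2 scale in RA 2 than in the mean of the other 7 arrays. By the mean deviation, the 3 other RA arrays lay within the range of the control arrays, while by the number of genes above their mean RA 3 was just above control 1. When RA 2 was set aside, the highest of the remaining arrays was control 1 for 11 genes, RA 4 for 11, RA 3 for 4, control 4 for 2 and control 2 for 1.

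**Figure D1:**
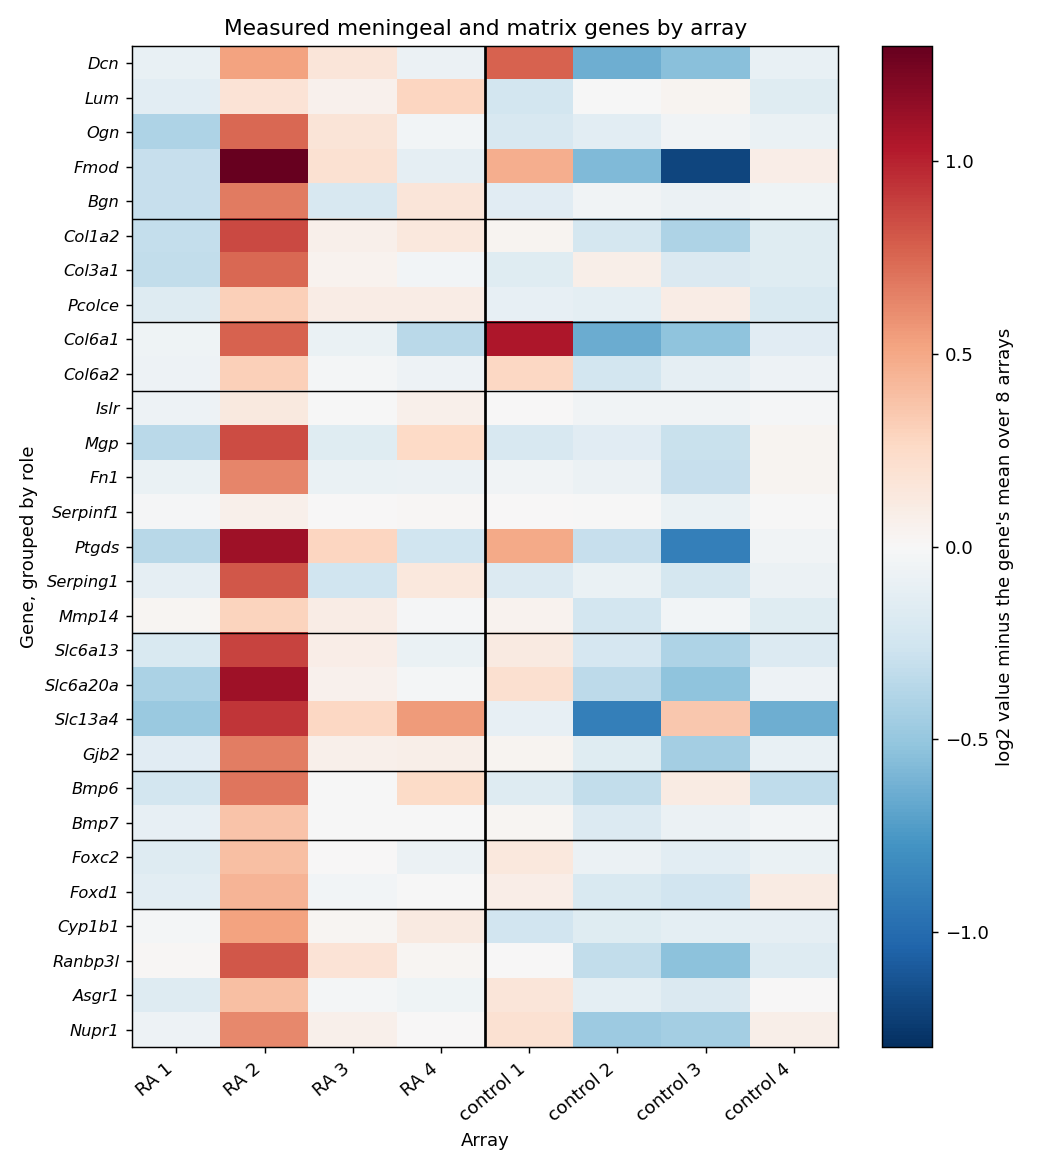
Each row is 1 of the 29 measured genes, grouped by role, and each column 1 array, with the 4 RA arrays left of the 4 control arrays; colour gives the log2 value minus the gene's mean over the 8 arrays. The RA 2 column is above the mean in all 29 rows, and control 1 shows high values in Col6a1, Dcn, Fmod and Ptgds.

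As to the question of whether the RA diet changed these genes, 19 of the 62 probe sets (30.6%) were called higher in the RA group and 0 lower by the rank product, the test named in the methods, which ranks every RA minus control difference and calls a probe set where the estimated proportion of false positives is under 0.05. The same fit called 0.915% of all 45037 probe sets higher and 0.575% lower, 1.49% in either direction. Among measured probe sets the shares called higher were 45.2% of the 42 and 11% of the 3758. By gene, 12 of the 29 measured genes (41.4%) were called higher, namely Dcn, Fmod, Col1a2, Col6a1, Ptgds, Slc6a13, Slc6a20a, Slc13a4, Gjb2, Bmp6, Cyp1b1 and Ranbp3l. Pcolce was called through its other probe set alone. The remaining 17 genes were not called. The RA mean was the higher in all 29 genes, and in 73.1% of all measured probe sets. The median log2 fold change of the 29 genes (RA minus control) was 0.24, and that of all measured probe sets was 0.07.

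These calls depended on each RA array, and on RA 2 for all of them. Without RA 1, RA 3 or RA 4 the rank product called 3, 3 and 2 genes and 5, 3 and 4 probe sets, Fmod and Ranbp3l each time. The loss was not particular to these genes: of all 45037 probe sets, 412 were called higher with all arrays. Without RA 1, RA 3 or RA 4 these were 18, 36 and 31, and without RA 2 they were 41. Without RA 2 it called 0 of the 62 probe sets, against a background of 0.091% of all probe sets called higher and 0.511% lower. The median log2 fold change of the 29 genes was then 0.07, as it was for all measured probe sets, and the RA mean was the higher for 24 genes and the lower for 5. limma, which weighs each difference against the spread within the groups, gave no probe set an adjusted p under 0.05 among all 45037, and the adjusted p of the 29 genes lay between 0.47 and 0.93. Unadjusted limma p was under 0.05 for Cyp1b1 and Ranbp3l, as it was for 9.66% of the measured and 10.1% of all probe sets. The rank product also ranked the unmeasured probe sets, and among the 3758 measured probe sets alone it called 0 of these genes.

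The spread itself differed. The median SD of the 29 genes was 0.36 over the 4 RA arrays and 0.15 over the 4 control arrays, and 24 of the 29 genes had the larger SD in the RA group. Over RA 1, RA 3 and RA 4 the median SD was 0.14.

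**Figure D2:**
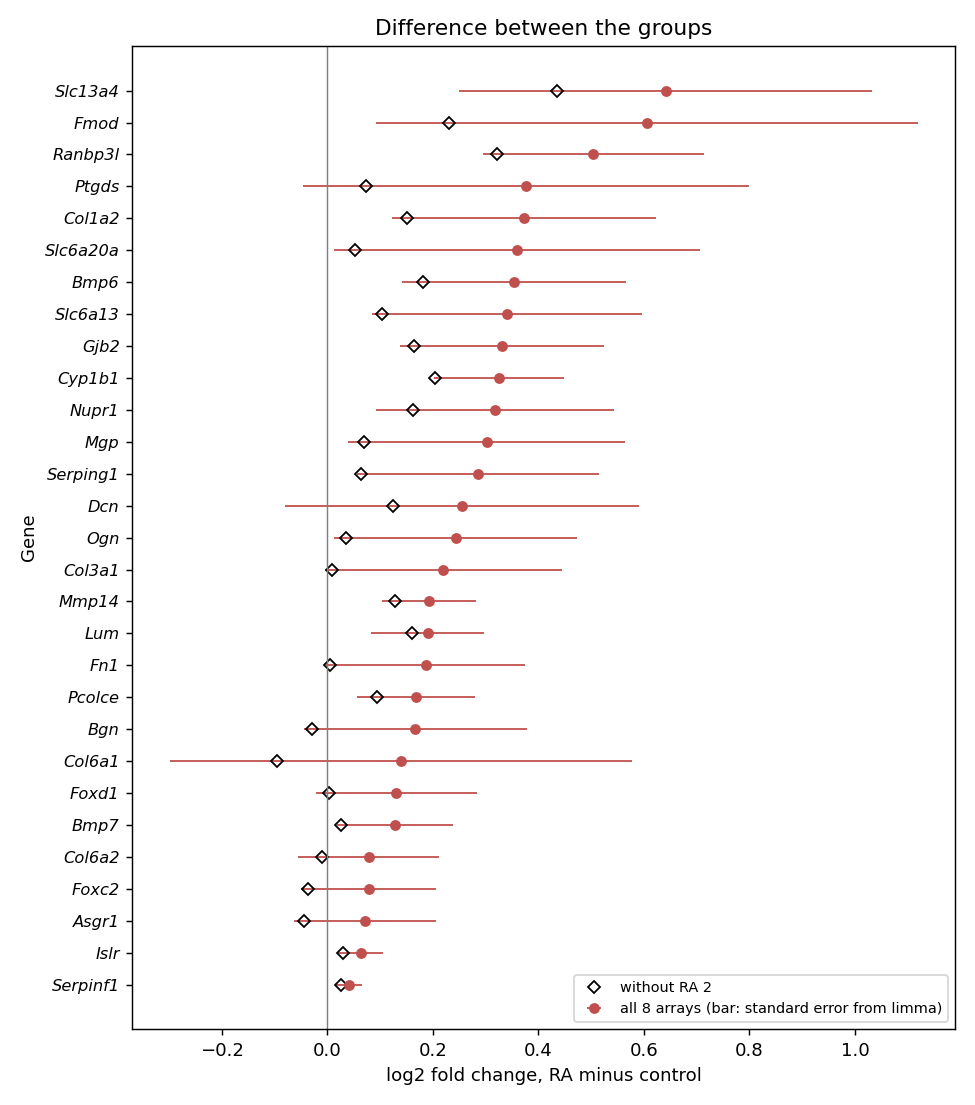
Filled points give each measured gene's log2 fold change (RA minus control) over 8 arrays with its standard error from limma, and open diamonds the same without RA 2. All 29 filled points lie above 0, and of the diamonds 24 lie above 0 and 5 below.

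The small leucine-rich proteoglycans bind collagen fibrils and set their spacing and width. All 5 members were measured, with log2 fold changes between 0.17 and 0.61, and 2 were called higher. Fmod, fibromodulin, had log2 values of 6.67, 8.40, 7.17 and 6.85 in the RA arrays, against 7.44, 6.40, 5.78 and 7.06 in the control arrays. RA 2 was highest and control 3 lowest, and the groups overlapped widely. Its means were 7.27 ± 0.78 in the RA group and 6.67 ± 0.74 in the control group (SD, n = 4 each), a 1.52-fold difference, with a limma adjusted p of 0.72. Fmod was measured by 6 probe sets, and all 6 were called higher, with log2 fold changes between 0.29 and 0.61. Their values over the arrays correlated with each other at r of at least 0.97, so they count as repeated readings of 1 transcript.

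Dcn, decorin, which also binds growth factors of the TGF-beta family, was called too. Its log2 values were 9.32, 9.94, 9.58 and 9.35 in the RA arrays, against 10.19, 8.79, 8.88 and 9.32 in the control arrays. Control 1 was above every RA array and control 2 and control 3 were below every one. The log2 fold change was 0.26 with a standard error of 0.34 (limma adjusted p = 0.82). A call by the rank product thus stood beside a difference smaller than its own error.

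The other 3 proteoglycans were not called. Ogn, osteoglycin, had 6.43, 7.57, 7.0 and 6.79 in the RA arrays, against 6.62, 6.69, 6.78 and 6.74 in the control arrays, so RA 1 was lowest and RA 2 highest. Bgn, biglycan, showed the same pattern, with 6.21, 7.18, 6.30 and 6.67 in the RA arrays, against 6.36, 6.46, 6.43 and 6.45 in the control arrays. Its 3 measured probe sets had log2 fold changes between 0.17 and 0.21, and the one shown had -0.029 without RA 2. Lum, lumican, was the exception to the RA 2 pattern: it had 6.22, 6.54, 6.41 and 6.64 in the RA arrays, against 6.12, 6.35, 6.39 and 6.20 in the control arrays. Its groups overlapped only through RA 1, and the log2 fold change was 0.19 with RA 2 and 0.16 without it.

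**Figure D3:**
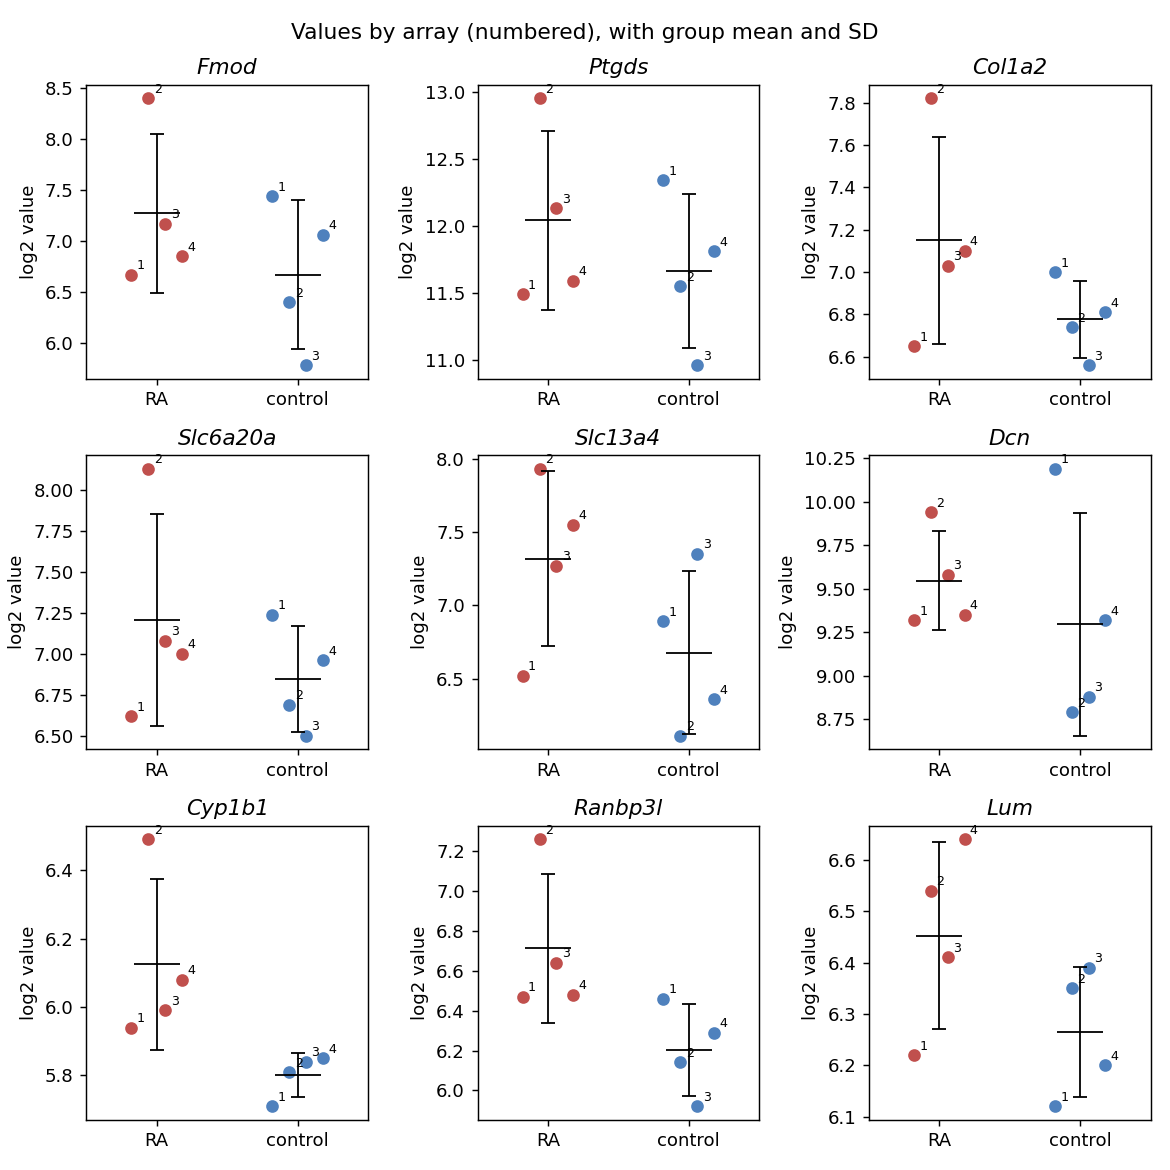
Points are the log2 values of single arrays, numbered within their group, for 9 genes, with the RA group left of the control group; horizontal lines are group means and bars 1 SD (n = 4 each). RA 2 is the top point of the RA group in all panels but Lum, and the groups are apart only in Cyp1b1 and Ranbp3l.

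Of the fibrillar collagens and their processing, 3 of 4 members were measured. Col1a2, a chain of type I collagen, was called higher. It had log2 values of 6.65, 7.82, 7.03 and 7.10 in the RA arrays, against 7.0, 6.74, 6.56 and 6.81 in the control arrays. RA 2, RA 3 and RA 4 were above all control arrays and RA 1 was below 3 of them. The log2 fold change was 0.37 with a standard error of 0.25 (limma adjusted p = 0.65), and 0.15 without RA 2. A further measured probe set of Col1a2 was not called, with a log2 fold change of 0.088 and -0.063 without RA 2, and Col1a2 was not called on the mean of its probe sets. The partner chain Col1a1 was unmeasured on both of its probe sets, so type I collagen was followed through 1 of its chains.

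Col3a1, the chain of type III collagen, was not called. It stood at 6.41 in RA 2 and between 5.34 and 5.71 in the other RA arrays, against 5.47 to 5.74 in the control arrays. Its log2 fold change of 0.22 was 0.008 without RA 2. Pcolce, which enhances the cleavage of procollagen, had log2 fold changes of 0.17 on the probe set standing for it, which was not called, and 0.29 on the other, which was called higher.

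Collagen VI forms beaded filaments between cells and fibrils. Both measured chains followed control 1 as well as RA 2. Col6a1 had 6.23, 7.06, 6.20 and 5.94 in the RA arrays, against 7.34, 5.64, 5.77 and 6.14 in the control arrays. It was called higher although control 1 was the highest array and its log2 fold change was 0.14 with a standard error of 0.44. Without RA 2 the difference was -0.095, and it was also below 0 without control 2 or without control 3. Col6a2 had 6.31, 6.68, 6.35 and 6.31 in the RA arrays, against 6.64, 6.13, 6.26 and 6.31 in the control arrays, and was not called.

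Among 7 other secreted and matrix proteins, all were measured and 1 was called. Ptgds makes prostaglandin D2 and is also secreted as a carrier protein into cerebrospinal fluid, by meninges, choroid plexus and oligodendrocytes. It had 11.49, 12.95, 12.13 and 11.59 in the RA arrays, against 12.34, 11.55, 10.96 and 11.81 in the control arrays. Its order over the arrays was near that of Fmod, with RA 2 and control 1 high and control 3 lowest. The log2 fold change was 0.38 with a standard error of 0.42 (limma adjusted p = 0.79) and 0.073 without RA 2.

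The remaining 6 of these proteins had log2 fold changes between 0.041 and 0.30. Mgp, matrix Gla protein, an inhibitor of calcification, had 7.38, 8.57, 7.57 and 7.99 in the RA arrays, against 7.52, 7.58, 7.44 and 7.76 in the control arrays. Fn1, fibronectin, stood apart in 1 array only, with 7.31, 8.04, 7.31 and 7.32 in the RA arrays, against 7.36, 7.33, 7.10 and 7.44 in the control arrays. Serping1, the inhibitor of the first complement component, had 6.17, 7.10, 6.03 and 6.43 in the RA arrays, against 6.11, 6.20, 6.06 and 6.21 in the control arrays. In each of these 3 genes the high value was that of RA 2, and the log2 fold change without it was 0.070 for Mgp, 0.005 for Fn1 and 0.064 for Serping1. Mmp14, a membrane-bound protease that cuts collagen, had a log2 fold change of 0.19 with a standard error of 0.089 and 0.13 without RA 2. Islr and Serpinf1 varied little, with SDs over all arrays of 0.067 and 0.040.

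Of 7 transporters and channels only 4 were measured, and all 4 were called higher, with log2 fold changes between 0.33 and 0.64. Of all measured probe sets, 11% were called higher. Without RA 2 the 4 genes were no longer called. Slc13a4, a sodium-coupled sulfate transporter, had 6.52, 7.93, 7.27 and 7.55 in the RA arrays, against 6.89, 6.11, 7.35 and 6.36 in the control arrays. RA 2, RA 4 and RA 3 were high, but so was control 3, an order that differed from that of most members. Its means were 7.32 ± 0.60 in the RA group and 6.68 ± 0.56 in the control group (SD, n = 4 each), a 1.56-fold difference, with a limma adjusted p of 0.62. Without RA 2 the log2 fold change was 0.44, the largest of the 29 genes. Markers of the choroid plexus, described below, were also high in RA 3, RA 4 and control 3, though not in RA 2. Their median log2 fold change without RA 2 was 0.73. Whether choroid plexus RNA had a part in the values of Slc13a4 was not tested.

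Both amino acid transporters followed RA 2 more closely. Slc6a20a, which carries proline and related imino acids, had 6.62, 8.13, 7.08 and 7.0 in the RA arrays, against 7.24, 6.69, 6.50 and 6.96 in the control arrays. Slc6a13, which carries GABA and taurine, had 6.03, 7.11, 6.32 and 6.14 in the RA arrays, against 6.35, 6.01, 5.83 and 6.05 in the control arrays. In both genes RA 2 was highest and control 1 next. The log2 fold change was 0.36 for Slc6a20a and 0.052 without RA 2, and 0.34 for Slc6a13 and 0.10 without RA 2. Gjb2, the gap junction protein connexin 26, had 6.47, 7.29, 6.69 and 6.70 in the RA arrays, against 6.66, 6.46, 6.18 and 6.52 in the control arrays. Here RA 2, RA 3 and RA 4 lay above all control arrays, and RA 1 did not. The log2 fold change was 0.33 with a standard error of 0.19 (limma adjusted p = 0.60).

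The BMP ligands are secreted signals of the TGF-beta superfamily. Bmp6 was called higher, with 6.32, 7.25, 6.55 and 6.81 in the RA arrays, against 6.39, 6.24, 6.66 and 6.23 in the control arrays. As in Slc13a4, RA 2 and RA 4 were high and control 3 was the highest of the controls. The log2 fold change was 0.35 with a standard error of 0.21, and 0.18 without RA 2. Bmp7 was not called and had a log2 fold change of 0.13. The transcription factors Foxc2 and Foxd1, which act in the formation of meninges and other mesenchyme, were not called either. Foxc2 was highest in RA 2, at 5.89, and had a log2 fold change of -0.037 without that array. Foxd1 was also highest in RA 2, at 6.13, with 0.004 without it.

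Cyp1b1 and Ranbp3l were the only members whose groups did not overlap, 2 of 29, whereas 2.71% of all measured probe sets were apart with the RA group higher and 2.87% with it lower. For both genes only the probe set shown was measured, and their other probe sets were unmeasured. Cyp1b1 is a cytochrome P450 that oxidises steroids, retinoids and foreign aromatic compounds. It had log2 values of 5.94, 6.49, 5.99 and 6.08 in the RA arrays, against 5.71, 5.81, 5.84 and 5.85 in the control arrays. The control arrays lay close together, and the RA arrays other than RA 2 were just above them. Apart from RA 2, the values of Cyp1b1 ran from 5.71 to 6.08, near the array medians of 5.83 to 5.84. Its means were 6.13 ± 0.25 in the RA group and 5.80 ± 0.063 in the control group (SD, n = 4 each), a 1.25-fold difference with a 95% confidence interval of the log2 fold change of 0.030 to 0.62. The 2-sided exact permutation test over the 70 assignments of the arrays gave p = 0.0286, the smallest that 4 against 4 can give, and the limma adjusted p was 0.47. Any gene whose groups are fully apart gets this permutation p, so it only restates the lack of overlap. Neither it nor the interval was adjusted over the 29 genes.

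Ranbp3l encodes a Ran-binding protein that takes part in the export of proteins from the nucleus. It had 6.47, 7.26, 6.64 and 6.48 in the RA arrays, against 6.46, 6.14, 5.92 and 6.29 in the control arrays. The lowest RA array and control 1 were nearly level, and after either rescaling of the arrays the groups overlapped. Its means were 6.71 ± 0.37 in the RA group and 6.21 ± 0.23 in the control group (SD, n = 4 each), a 1.42-fold difference, with an exact permutation p of 0.0286 and a limma adjusted p of 0.49. Both genes stayed apart without RA 2, with log2 fold changes of 0.20 for Cyp1b1 and 0.32 for Ranbp3l, although the rank product then called neither. Over the other 27 genes the exact permutation p was between 0.114 and 0.686. Nupr1, a small stress-induced nuclear protein, and Asgr1, a lectin receptor best known from liver, were not called, with log2 fold changes of 0.32 and 0.071.

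Promoter windows of 300 bases, from 250 before to 50 after the transcription start, were taken from RefSeq (GRCm38.p6) for the 25 members that had one, 29 windows in all. They are shown for Cyp1b1, whose groups did not overlap, and for Fmod and Col1a2, called genes that RA 2 set apart. A match to the xenobiotic response core and matches to the letters CCAAT can be seen in them. Capitals mark the motifs searched for, on either strand, and no 2 of the marked motifs overlap. The Cyp1b1 window is chr17:79715012-79715311 on the minus strand, that of Fmod is chr1:134037004-134037303 on the plus strand and that of Col1a2 is chr6:4505368-4505667 on the plus strand.
Cyp1b1: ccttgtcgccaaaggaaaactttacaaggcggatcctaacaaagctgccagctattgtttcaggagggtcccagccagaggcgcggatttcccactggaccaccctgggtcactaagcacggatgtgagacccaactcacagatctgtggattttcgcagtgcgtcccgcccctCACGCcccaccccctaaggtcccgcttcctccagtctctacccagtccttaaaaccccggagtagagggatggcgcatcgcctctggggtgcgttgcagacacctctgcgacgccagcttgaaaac
Fmod: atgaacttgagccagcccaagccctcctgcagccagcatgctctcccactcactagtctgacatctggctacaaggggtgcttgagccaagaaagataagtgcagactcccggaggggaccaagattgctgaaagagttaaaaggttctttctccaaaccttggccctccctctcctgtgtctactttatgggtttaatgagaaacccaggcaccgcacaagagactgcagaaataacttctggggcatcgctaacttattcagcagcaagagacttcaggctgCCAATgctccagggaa
Col1a2: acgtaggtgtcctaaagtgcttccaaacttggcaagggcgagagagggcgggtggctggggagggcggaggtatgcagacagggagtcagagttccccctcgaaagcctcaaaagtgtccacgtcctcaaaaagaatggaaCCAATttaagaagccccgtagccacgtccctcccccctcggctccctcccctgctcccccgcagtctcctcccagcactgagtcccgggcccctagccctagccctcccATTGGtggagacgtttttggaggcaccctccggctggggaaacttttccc
In the Cyp1b1 window the capitals are 1 core of the xenobiotic response element, GCGTG read on the other strand, which begins at base 175 of the window. The core was found in 31% of the 29 windows and in 32.4% of all 32851 RefSeq windows of this length. In the Fmod window they are 1 CCAAT match at base 285, which lies after the transcription start. In the Col1a2 window they are a CCAAT match at base 142, before the start, and another at base 251. The latter is on the other strand and lies at the start. A CCAAT box is an element upstream of the start, so the matches at bases 285 and 251 are matches of letters only. CCAAT stood in 41.4% of the members' windows and in 37.4% of all windows. The AP-1 site TGACTCA stood in 10.3% and in 5.2%, and the TATA box TATAAA in 6.9% and in 13.6%. The window of Ranbp3l held none of these letters. These matches describe the sequence, and binding was not measured.

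The 5 unmeasured genes were Col1a1, the transcription factor Tbx18, and Slc22a6, Slc22a2 and Slc47a1, transporters of organic anions and cations. Their probe sets, with those unmeasured for other members, made 20 in all. None of the 20 had an SD above 0.00075 or a log2 fold change above 0.001 in size, and their means lay between 5.09 and 6.40. The smallest SD of a measured probe set was 0.040. An unmeasured value says that the probes did not vary together in these arrays, and gives no level and no difference between the groups.

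The members co-varied over the arrays in most pairs, and part of this was RA 2. Correlations were not computed for pairs of other measured probe sets. The counts below therefore have no background share and do not show a trait particular to the members. Of the 406 pairs of measured genes, 403 had a Pearson correlation above 0 over the 8 arrays. The median r was 0.79 and the median Spearman rho 0.62, and 132 pairs by r and 23 by rho had a Benjamini-Hochberg adjusted p under 0.05 in the exact permutation test over all 406 pairs. Over the 7 arrays without RA 2 the median r was 0.40, with a range of -0.62 to 0.97, and 327 pairs were above 0. The median over deviations from the group means was 0.76.

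Some pairs of members stayed correlated without RA 2. Col6a1 and Col6a2, the collagen VI chains, correlated at r = 0.97 over 8 arrays and 0.97 without RA 2. Fmod and Ptgds correlated at 0.98 and 0.96, Slc6a13 and Slc6a20a at 0.98 and 0.93, and Col1a2 and Gjb2 at 0.98 and 0.94. These pairs were picked for their size from the 406 and are a description. Whether the members form separate sets was not tested. Slc13a4 and Bmp6 made another pair, at 0.94 and 0.96, with high values in RA 2, RA 4 and control 3. By contrast, Fn1 and Pcolce correlated at 0.50 over 8 arrays and -0.62 without RA 2. The median correlation with the other members without RA 2 was highest for Slc6a20a, Fmod and Ptgds, each at 0.71, and lowest for Lum and Pcolce, each at 0.04.

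With Dcn as the partner, the median r of the 28 other genes was 0.68 and the median rho 0.69. Adjusted over the 28, Col6a1 at r = 0.96 and Col6a2 at r = 0.94 had an exact permutation p under the 0.05 threshold, and 7 genes had by rho. Leaving out RA 2 and control 1, the 2 arrays farthest from the median of Dcn, gave a median r of 0.66. Lum had the lowest r with Dcn, at -0.14 (rho 0.071), and by rho Bgn was lowest, at -0.048. Without RA 2 the r of Bgn was -0.24, that of Cyp1b1 -0.17 and that of Col3a1 -0.16.

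**Figure D4:**
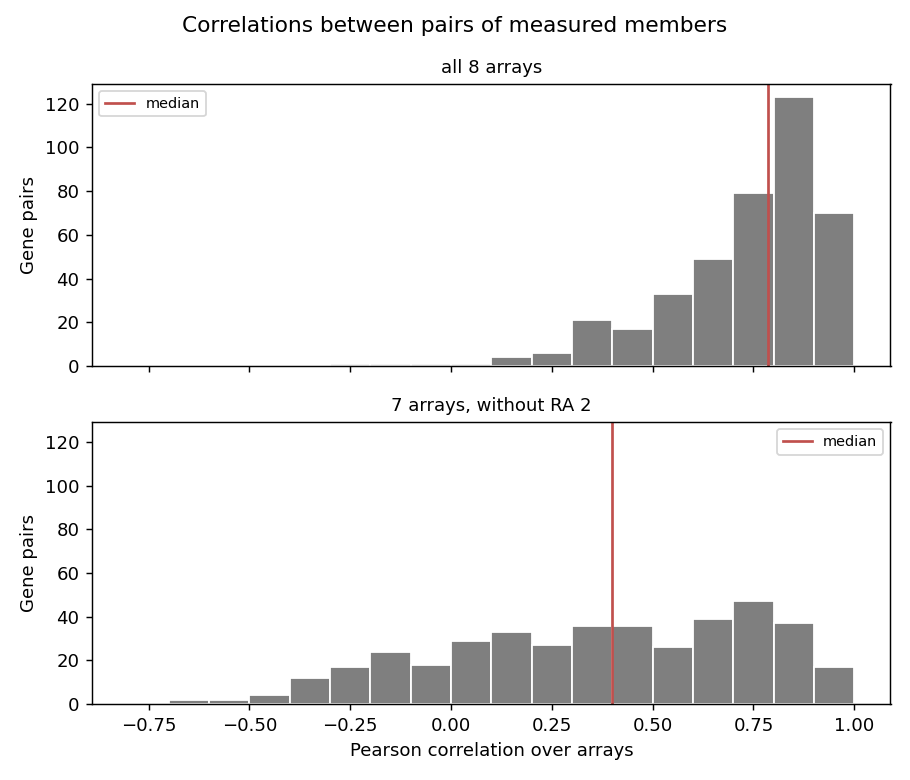
Histograms of the Pearson correlation over arrays for the 406 pairs of measured genes, above over 8 arrays and below over the 7 arrays without RA 2; the vertical axis counts gene pairs and the line marks the median. The median is 0.79 above and 0.40 below, where the pairs spread from -0.62 to 0.97.

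Genes of the same tissue outside the list gave a like picture in part. Among 23 further arachnoid and meningeal genes on the array, 14 were measured, and 7 were called higher and 1 lower. The gene called lower, Cldn11, is the same one that stands among the oligodendrocyte markers below. Its log2 fold change was -0.10, and 0.24 without RA 2. Of the 14, 7 were highest in RA 2. Zic1, a transcription factor of meninges that is also a thalamic marker, had 8.63, 8.10, 7.08 and 8.22 in the RA arrays, against 7.37, 6.77, 7.76 and 7.40 in the control arrays, and so was highest in RA 1. Igfbp2 and Col8a1, with log2 fold changes of 0.42 each, were highest in control 3, at 9.15 and 7.01. Aldh1a2, the enzyme with which meninges make retinoic acid, was less changed than these, at 0.40, and is given because it resembled the members. It had 6.31, 7.40, 6.52 and 6.24 in the RA arrays, against 6.77, 6.11, 5.66 and 6.32 in the control arrays. It was near the order of Fmod and Ptgds, with RA 2 and control 1 on top and control 3 lowest. Igf2 had 7.41, 8.74, 8.47 and 8.78 in the RA arrays, against 7.51, 7.19, 8.78 and 7.51 in the control arrays, with control 3 as high as RA 4. Of 15 measured further fibroblast genes, 3 were called higher: Sparc, a collagen-binding matrix protein, by 0.36 on the log2 scale, Pdgfra, a growth factor receptor also carried by oligodendrocyte precursors, by 0.26, and Lgals1, galectin 1, by 0.20. The other lists of matrix genes were mostly unmeasured. Calls were 1 of 5 measured further collagen chains (Col8a2), 2 of 4 collagen-processing enzymes (Pcolce2 and Tgm2), 1 of 2 further small leucine-rich proteoglycans (Prelp), 0 of 2 basement membrane genes (Nid1 at a log2 fold change of 0.11 and Sparcl1 at 0.026) and 1 of 4 matrix proteases and inhibitors (Adamts1), all higher. Of all measured probe sets, 11% were called higher. Tgm2 and Prelp were highest in RA 2, but Col8a2 and Adamts1 were highest in control 3, at 7.25 and 6.87. Pcolce2 was highest in RA 4, at 7.15, and stood at 5.41 in RA 2. In the BMP and TGF-beta pathway, 3 of 11 measured genes were called higher, the signal transducer Smad4 and the BMP target genes Id2 and Id4, and the receptors were not called.

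Markers of vessel wall cells stood high in the same array. Of 12 pericyte and smooth muscle markers 4 were measured, all 4 highest in RA 2, and 2 were called higher, Acta2 and Myh11. Acta2, Myh11 and Tagln are smooth muscle genes, and each was next highest in RA 4. Rgs5, the pericyte gene among the 4, varied little, with 8.74 in RA 2 and 8.44 to 8.63 elsewhere. Its log2 fold change was 0.001, and -0.054 without RA 2, so a rise of pericyte markers was not seen. Acta2, smooth muscle actin, had 7.05, 8.96, 7.0 and 8.10 in the RA arrays, against 6.90, 7.02, 7.38 and 7.33 in the control arrays. The summed level of the list, on the linear scale, ranged over 574 to 1178 in the RA arrays and 608 to 678 in the control arrays. All 3 measured endothelial markers of 12 were also highest in RA 2 and 2 were called higher, Flt1 and Vwf, with a summed level of 378 to 570 in the RA arrays and 327 to 413 in the control arrays. Cldn5, a tight junction protein of brain endothelium, had 7.61, 8.15, 7.68 and 7.32 in the RA arrays, against 7.66, 7.55, 7.18 and 7.34 in the control arrays. Both measured border macrophage markers of 8 were highest in RA 2 as well, and F13a1 was called higher, with a summed level of 109 to 151 in the RA arrays and 90 to 125 in the control arrays. The part of these cells in the result was not tested.

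The choroid plexus followed other arrays. Of its 18 markers on the array 17 were measured and all 17 were called higher, yet none was highest in RA 2. Ttr, transthyretin, the main secreted protein of that epithelium, had 12.05, 7.67, 13.12 and 13.26 in the RA arrays, against 8.54, 8.57, 13.39 and 8.90 in the control arrays. RA 2 was the lowest of the 8. The summed level of the list ranged over 958 to 12709 in the RA arrays and 1100 to 14215 in the control arrays. The mean deviation of the 17 markers was -0.86 in RA 2, level with control 1, control 2 and control 4 at -0.84 to -0.83, so choroid plexus markers were low in the array where the meningeal genes were highest. They were high in control 3, RA 4 and RA 3. Kcnj13, Clic6 and Sostdc1 had log2 fold changes of 0.78, 0.68 and 0.62, and each was highest in control 3.

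Other cells of the tissue varied too. Oligodendrocyte markers were low in RA 2, with a mean deviation of -0.89, and in control 1, with -0.71, the arrays where Dcn and Col6a1 were highest. Of 9 measured oligodendrocyte markers 1 was called lower, Cldn11, and of 10 measured neuronal markers 2 were, Snap25 and Neurod6. Summed levels ranged over 5156 to 12232 in the RA arrays and 6122 to 13747 in the control arrays for oligodendrocytes, and over 9404 to 11016 in the RA arrays and 10276 to 11006 in the control arrays for neurons. Thalamic markers, of cells outside the hippocampus, were called higher in 6 of 9 measured genes, led by Zic1 (0.68), Slc17a6 (0.38), Tcf7l2 (0.32) and Prkcd (0.29) on the log2 scale, and 7 of the 9 were highest in RA 2, with a summed level of 988 to 1603 in the RA arrays and 949 to 1253 in the control arrays. The counts called higher were 2 of 9 astrocyte (Slc1a3 and Aldh1l1), 0 of 4 microglial, 1 of 10 ependymal (Cfap126) and 0 of 1 blood cell markers. C1qa and C1qb, the microglial markers that varied most, had log2 fold changes of 0.15 and 0.18, and Alas2, of blood cells, 0.002. Over all these lists 48 genes were called higher and 3 lower, while 11% of all measured probe sets were called higher and 6.89% lower. Without RA 1, RA 2, RA 3 or RA 4 the counts were 4, 17, 6 and 3 higher. In the same order they were 5, 1, 3 and 9 lower. The part of the dissection in the result was not tested.

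**Figure D5:**
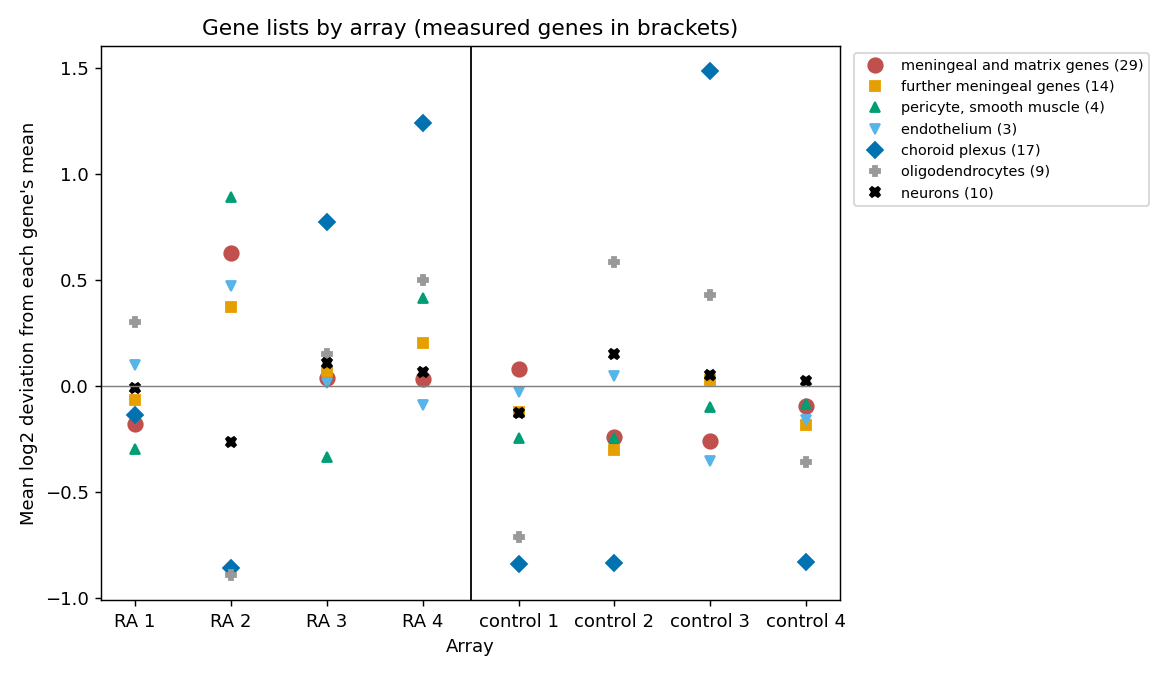
For each array, RA arrays left of control arrays, symbols give the mean deviation of a list's measured genes from their own means over the 8 arrays, on the log2 scale; the number of genes is in brackets. In RA 2 the meningeal genes (0.63), pericyte and smooth muscle markers (0.89) and endothelial markers (0.47) are high and the choroid plexus (-0.86) and oligodendrocyte (-0.89) markers are low. In the pericyte and smooth muscle list the pericyte gene Rgs5 varied little, with an SD of 0.090 over the 8 arrays.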

How the data were processed

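Hippocampal RNA of 8 samples was hybridised to Affymetrix mouse genome arrays. The deposited values are log2 intensities: the authors normalised and summarised the probes in R with FARMS, and the scaling step within it is not stated. The arrays' number, 4 per group, limits the precision. Probe sets were named through the platform annotation (34945 of 45037 name 1 gene, 932 several and 9160 none), and 64 probe sets of the maker were left out.

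The rank product, as in the methods, used 16 RA minus control differences and 100 permutations within arrays, with a proportion of false positives under 0.05. Differences on the log2 scale, their errors and p-values adjusted by Benjamini-Hochberg came from limma 3.58.1 in R 4.3.3, over all probe sets. Exact permutation tests were written in Python 3.11.15 with numpy 2.4.6 and went through every assignment or pairing of the arrays. The code was checked on simulated data. Alternatives were quantile normalization, median subtraction, filters, a stricter threshold, limma, other probe set choices, a replicate block and leaving out each array.

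Members and the 19 companion lists were chosen with earlier results of these data known. Every member is named. Those called or with groups apart are given by array, with a few others, added after their values were seen, to show the pattern. Per list the called genes with the largest fold changes, up to 4, are named, or the 2 that varied most where none was called, with Ttr, Cldn5 and Acta2 as checks.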

Additional observations from a re-analysis of the deposited data

Results flagged for a closer look

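In 4 of 58 groups of 4 arrays (29 genes in 2 groups), 1 array stood farther from the other 3 than Dixon's test allows at its 95% critical value. Chance flags about 1 in 20 groups. Fn1 at 8.04 and Col6a2 at 6.68 were the high values of RA 2. In the control group Col3a1 was high in control 2, at 5.74, and Serpinf1 was low in control 3, at 6.39.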

How the results depend on the processing

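The counts of calls changed widely with the arrays, the test and the filter. When single arrays were left out, the number of genes called higher, 12 with all arrays, ranged from 0 (without RA 2) to 16 (without control 1), and was 3 without RA 1 or RA 3, 2 without RA 4 and 7 without control 2. For probe sets of these genes (19) the range was 0 to 25, for the companion lists 3 to 64 higher (48) and 0 to 9 lower (3), and over all probe sets 18 to 966 higher (412) and 136 to 317 lower (259). Fmod and Ranbp3l were called in 7 of the 8 fits, all but that without RA 2. The median log2 fold change of the 29 genes stayed above 0 in every alternative, between 0.070 and 0.36. Single differences turned below 0 without RA 2 for 5 genes, whose values over the fits with 1 array left out ranged from -0.029 to 0.29 for Bgn, -0.037 to 0.14 for Foxc2, -0.045 to 0.14 for Asgr1, -0.095 to 0.51 for Col6a1 and -0.010 to 0.18 for Col6a2. Col6a1 also turned without control 2 (-0.054) and without control 3 (-0.013). With limma in place of the rank product all of these counts were 0. At a threshold of 0.01, 3 genes and 3 of their probe sets, 5 companion genes higher and 1 lower, and 26 probe sets higher and 155 lower were called. With only SDs above 0.01 tested, 0 genes and 0 of their probe sets, 1 companion gene higher and 0 lower, and 4 probe sets higher and 17 lower were called. With only means of at least 7 tested, the counts were 0, 1, 5, 1, 15 and 137 in the same order. Averaging a gene's probe sets gave 8 genes and 22 companion genes called higher. After quantile normalization or median subtraction the same 12 genes were called, and 1 gene, Cyp1b1, kept its groups apart in each. The median correlation with Dcn was 0.94 within the RA group. The causes were not tested.

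Whether the replicate numbers pair the arrays is not stated. Deviations from the group means of same-numbered arrays correlated at -0.12, -0.33, 0.45 and -0.39, and 1 of 4 RA arrays correlated best with its own number. These correlations cannot tell whether same-numbered arrays were handled together, which was not tested. With the numbers as a replicate block, 4 genes (Slc6a20a, Fmod, Cyp1b1 and Ranbp3l) and 6 of their probe sets, 11 companion genes and 78 of all probe sets were called higher, and 210 lower.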
